A study of Homo sapiens with 16 samples.

Results

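The enzymes that make serine from a glycolytic intermediate and pass its carbon into the folate cycle were followed in MCF10A cells over 45 h of treatment with a HER2 inhibitor. The members are PHGDH, PSAT1, PSPH, SHMT1, SHMT2, MTHFD1, MTHFD1L and MTHFD2, and every row of the intensity table that carried one of these symbols was kept, with each probe described separately. They make up 8 of the 18190 gene symbols and 10 of the 20589 rows on the array. Of these 10 rows, 9 had a detection p-value under 0.05 on at least 3 of the 16 arrays and were tested among 11957 such probes. The remaining row, the second PSAT1 probe (ILMN_27293), was not above background on any array.

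MCF10A cells come from human breast epithelium and are not transformed, and the inhibitor used is a small molecule directed at the kinase of HER2, a receptor of the EGF receptor family. Parallel cultures received it at 1 µM in fresh medium, and RNA was taken every 3 h from 0 to 45 h, with the 0 h array from untreated cells. Each time point was measured on 1 Illumina Ref8v2 array, so no time point had a replicate, and no series without inhibitor was analysed here. The inhibitor, the medium change and time in culture therefore cannot be told apart. All cultures grew in serum-free medium with insulin, EGF and hydrocortisone, among other supplements. Between 50.1% and 52.9% of rows were detected per array. Of 10 markers of basal mammary epithelium, 7 were above background on all arrays, with KRT5 at a mean log2 intensity of 15.05, while KRT14 was above background on 1 array. Of 12 markers of leukocytes, endothelium, fibroblasts and hormone-responsive luminal cells, none was above background on all arrays and 7 were so on no array. The log2 of the summed intensities of these 12 was 9.34 to 9.62 over 0-9 h, 9.59 to 9.73 over 12-21 h, 9.65 to 9.75 over 24-33 h and 9.87 to 10.01 over 36-45 h. CD14 and PECAM1, 2 of the 5 tested, rose to 12-21 h (CD14 at least 1.66-fold, adjusted p = 4.3e-05, and PECAM1 by 0.89 on the log2 scale, adjusted p = 0.00029), and CD14 rose again late (1.03, adjusted p = 1.8e-05). At 0-9 h CD14 was above background on 0 of 4 arrays, and it passed the filter only through later arrays. Nothing is therefore concluded from the test of its rise to 12-21 h. Among the 8 tested basal markers 5 rose from 0-3 to 6-9 h, 1 rose and 1 fell to 12-21 h, and 6 rose late while SFN fell by 0.61 on the log2 scale. Among all tested probes, 13.3%, 15.1% and 19.3% rose in these comparisons, and 11.5%, 14.4% and 18.7% fell. The log2 of the summed basal intensities lay between 15.80 and 16.41 on all arrays. The part of these shifts in the results was not tested. In RNA from whole cultures, fewer cells of a type and less RNA per cell cannot be told apart.

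Serine is made from the glycolytic intermediate 3-phosphoglycerate by PHGDH, which oxidizes it, PSAT1, which adds an amino group, and PSPH, which removes the phosphate. SHMT1 in the cytosol and SHMT2 in mitochondria then split serine into glycine and a carbon unit carried by tetrahydrofolate. In mitochondria MTHFD2 and MTHFD1L turn that unit into formate, and MTHFD1 takes formate back onto folate in the cytosol, where it feeds purine and thymidylate synthesis. The transcription factor ATF4 is known to raise many of these genes when amino acids are short.

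Levels are given as log2 of the background-corrected, quantile-normalized intensity, in the order of the time points. Consecutive windows of 4 time points (0-9, 12-21, 24-33 and 36-45 h) were compared with limma, and 6-9 h was compared with 0-3 h in a fit of consecutive pairs of time points. Adjusted p-values were taken over all 11957 probes, and a probe was called below 0.05. A window is not a set of replicates, so its spread also holds the change within it.

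The 8 enzymes followed 3 kinds of course. PHGDH, PSAT1 and PSPH were called lower at 36-45 h than at 0-9 h. Ending below the start was not particular to them, since at 45 h every main probe except that of MTHFD1L read below its 0 h value. The main probes of MTHFD2, SHMT1 and SHMT2 had their lowest values at 9 or 12 h. MTHFD1 and MTHFD1L were highest in the middle of the series. The smooth trend of time passed the test for 8 of the 9 member probes, where it did so for 54.7% of all probes. The probe outside that count was MTHFD2 (adjusted p = 0.44), and with 5 in place of 3 degrees of freedom for the curve it was called (adjusted p = 0.0054).

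**Figure D1:**
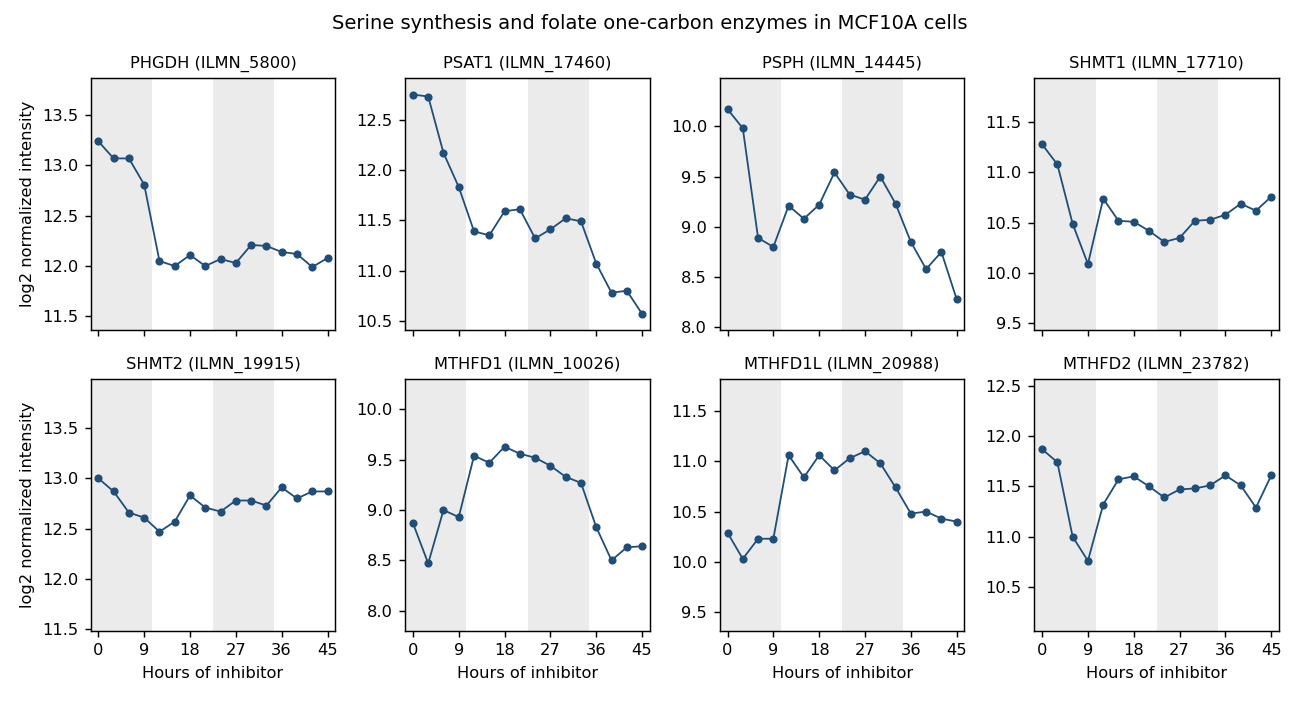
The log2 normalized intensity of the main probe of each enzyme on the 16 arrays (points joined in time order) against hours of inhibitor; grey and white bands mark the 4 windows, and every panel spans the same 2.5 log2 units. PHGDH has its largest step between 9 and 12 h, PSAT1 and PSPH are lowest at 45 h, MTHFD1 and MTHFD1L form a plateau from 12 to 33 h, and MTHFD2 and SHMT1 dip to their lowest value at 9 h.

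PHGDH, the first enzyme of serine synthesis, had most of its fall within a single 3 h interval. Its probe (ILMN_5800) read 13.24, 13.07, 13.07 and 12.81 at 0, 3, 6 and 9 h. It then read 12.05, 12.00, 12.11 and 12.00 from 12 to 21 h. The later arrays gave 12.07, 12.03, 12.21 and 12.20 from 24 to 33 h and 12.14, 12.12, 11.99 and 12.08 from 36 to 45 h. None of the 12 arrays from 12 h on reached the lowest of the first 4. The fall from 0-9 to 12-21 h was 2.01-fold (log2 change -1.01 ± 0.08 SE, adjusted p = 2.9e-07). The 9 h array lay at -0.43 and the 12 h array at -1.19 from the 0 h array on the log2 scale. The step between them, -0.76, was the largest between neighbouring arrays for this probe. After it, the difference between 36-45 and 24-33 h was -0.04 (95% interval -0.21 to 0.12, adjusted p = 0.69). That last value depended on the scaling, since with arrays scaled to a common median it was -0.31 (adjusted p = 0.0057). From 0-3 to 6-9 h the change was -0.22 (adjusted p = 0.089), and it depended on single arrays. It was called without the 3 h array (-0.30, adjusted p = 0.041) or the 6 h array (-0.35, adjusted p = 0.014), and it was -0.13 (adjusted p = 0.44) without the 0 h array and -0.09 (adjusted p = 0.61) without the 9 h array.

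PSAT1, the aminotransferase that follows PHGDH, fell in 2 phases and had the widest range of the members. ILMN_17460 read 12.75, 12.73, 12.17 and 11.83 over 0-9 h and 11.39, 11.35, 11.59 and 11.61 over 12-21 h. It read 11.32, 11.41, 11.52 and 11.49 over 24-33 h and 11.07, 10.78, 10.80 and 10.57 over 36-45 h. The 4 windows were stepwise lower except that those of 12-21 and 24-33 h overlapped. Its highest array, 0 h, was 4.53-fold above its lowest, 45 h. PSAT1 fell by 1.67-fold from 0-3 to 6-9 h (log2 change -0.74 ± 0.12 SE, adjusted p = 0.00023) and by 1.84-fold from 0-9 to 12-21 h (-0.88 ± 0.16 SE, adjusted p = 0.00059). A second fall of 1.54-fold separated 36-45 from 24-33 h (-0.63 ± 0.16 SE, adjusted p = 0.0049).

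PSPH, the phosphatase of the last step, was lowered early and again late. ILMN_14445 read 10.17 and 9.98 at 0 and 3 h and 8.89 and 8.80 at 6 and 9 h. It read 9.21, 9.08, 9.22 and 9.54 from 12 to 21 h and 9.32, 9.27, 9.50 and 9.23 from 24 to 33 h. The last 4 arrays gave 8.85, 8.58, 8.75 and 8.28. Every value between 12 and 33 h thus lay between the 0-3 h and the 6-9 h values. The early fall was 2.35-fold (log2 change -1.23 ± 0.17 SE, adjusted p = 6.7e-05). Of the 9 member probes it was the largest early change. The partial return from 6-9 to 12-15 h, a comparison chosen after the values were seen, was 0.31 (95% interval -0.05 to 0.66, adjusted p = 0.22). The late fall was 1.65-fold (-0.72 ± 0.24 SE, adjusted p = 0.026). The PSPH call was lost without the 24, 30, 39 or 45 h array, with changes of -0.72, -0.66, -0.71 and -0.61 and adjusted p-values of 0.052, 0.07, 0.055 and 0.087.

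**Figure D2:**
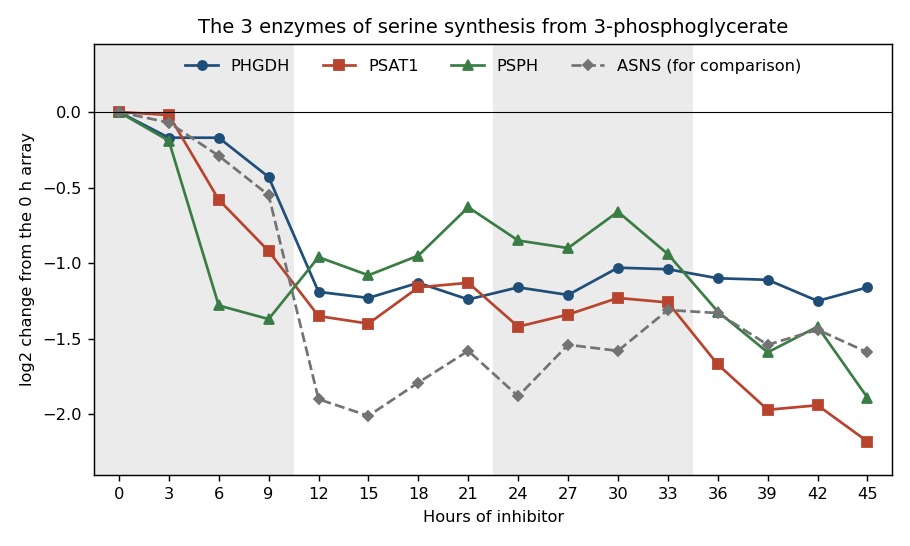
Change in log2 normalized intensity from the 0 h array for PHGDH, PSAT1, PSPH and, for comparison, ASNS (dashed) on each array; grey bands mark 0-9 and 24-33 h. PSPH is the lowest of the 4 at 6 and 9 h, PHGDH and ASNS step down between 9 and 12 h, and PSAT1 and PSPH end lowest at 45 h while PHGDH stays near -1.16.

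The late courses of PHGDH and PSAT1 were compared directly. PHGDH minus PSAT1 averaged 0.69 ± 0.05 (SD, n = 4) over 24-33 h and 1.28 ± 0.19 (SD, n = 4) over 36-45 h on the log2 scale. No array of one window overlapped the other (difference 0.58, two-sided exact permutation test, p = 0.0286, the smallest that 4 against 4 arrays allow). Adjusted over the 6 such tests made, p was 0.0857. From 0-9 to 12-21 h the same difference moved by -0.12 (exact permutation p = 0.486, adjusted p = 0.583). Time points are not exchangeable replicates, and a steady drift also separates consecutive windows, so nothing is concluded from these p-values. The same holds for the other pairs of enzymes compared below.

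SHMT1, the cytosolic hydroxymethyltransferase, was measured by 2 probes. The brighter one (ILMN_17710) read 11.28, 11.08, 10.49 and 10.09 over 0-9 h and 10.74, 10.52, 10.51 and 10.42 over 12-21 h. It read 10.31, 10.35, 10.52 and 10.53 over 24-33 h and 10.58, 10.69, 10.62 and 10.76 over 36-45 h. The lowest value stood at 9 h, and the arrays from 12 h on lay between it and the first pair. The fall from 0-3 to 6-9 h was 1.86-fold (log2 change -0.89 ± 0.13 SE, adjusted p = 9.8e-05). No window of 4 differed from its predecessor beyond the threshold, with -0.19 from 0-9 to 12-21 h (adjusted p = 0.47) and 0.23 from 24-33 to 36-45 h (adjusted p = 0.34). The former was called without the 9 h array (-0.41, adjusted p = 0.029), whereas it was -0.07 (adjusted p = 0.82) without the 3 h array and -0.01 (adjusted p = 0.98) without the 0 h array or with median scaling. The dim probe (ILMN_18055) was above background on 14 arrays, all but those of 18 and 45 h. It went from 7.33 and 7.08 at 0 and 3 h to 6.54 and 6.57 at 6 and 9 h (log2 change -0.65 ± 0.24 SE, adjusted p = 0.06), and this was called without the 18, 21, 42 or 45 h array (-0.65 each, adjusted p = 0.045, 0.045, 0.039 and 0.039). Its 0 h value was at least 2.22-fold above its 18 h value. With 0-3 h as the reference, 36-45 h was lower on both probes (bright -0.52, adjusted p = 0.0016, and dim -0.76, adjusted p = 0.019). The time trend of the bright probe was called (adjusted p = 0.0085), but not without the 0 h array (adjusted p = 0.15) or with median scaling (also 0.15).

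SHMT2, the mitochondrial counterpart, had the narrowest range, 1.45-fold from its highest array at 0 h to its lowest at 12 h. ILMN_19915 read 13.00, 12.87, 12.66 and 12.61 over 0-9 h and 12.47, 12.57, 12.83 and 12.71 over 12-21 h. It read 12.67, 12.78, 12.78 and 12.73 over 24-33 h and 12.91, 12.80, 12.87 and 12.87 over 36-45 h. The last window thus lay close to the value of 3 h. SHMT2 fell by 1.23-fold from 0-3 to 6-9 h (log2 change -0.30 ± 0.08 SE, adjusted p = 0.0093). Without the 0 h array this was -0.23 (adjusted p = 0.099) and without the 9 h array -0.28 (adjusted p = 0.066). The per-array difference between SHMT2 and SHMT1 moved by 0.05 from 0-9 to 12-21 h (exact permutation p = 0.8, adjusted p = 0.8) and by -0.11 from 24-33 to 36-45 h (exact permutation p = 0.2, adjusted p = 0.386).

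MTHFD2, the mitochondrial dehydrogenase and cyclohydrolase, dipped and came back in part. ILMN_23782 read 11.87 and 11.74 at 0 and 3 h, 11.00 and 10.76 at 6 and 9 h and 11.32 and 11.57 at 12 and 15 h. From 18 h on it stayed between 11.29 and 11.61, below both first arrays, and 36-45 minus 0-3 h was -0.30 (adjusted p = 0.023). The fall from 0-3 to 6-9 h was 1.90-fold (log2 change -0.93 ± 0.12 SE, adjusted p = 3.1e-05). From 6-9 to 12-15 h, a comparison chosen after the values were seen, it rose 1.48-fold (0.57 ± 0.12 SE, adjusted p = 0.0028). The windows of 4 averaged over this dip, and 12-21 minus 0-9 h gave 0.16 (95% interval -0.22 to 0.53, adjusted p = 0.56).

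Between 0-3 and 6-9 h, then, 5 of 9 member probes fell and 0 rose, against 11.5% lower and 13.3% higher among all probes. The median change was -0.65 for the members and -0.01 for all probes. Without the 0 h array 1 member probe rose, MTHFD1. The 5 were the PSAT1, PSPH, bright SHMT1, SHMT2 and MTHFD2 probes. From 6-9 to 12-15 h, 3 member probes rose (MTHFD1, MTHFD1L and MTHFD2) and 2 fell (PHGDH and PSAT1), against 11.2% and 10.5% of all probes. From 0-3 to 12-15 h, also chosen after the values were seen, 2 rose (MTHFD1 and MTHFD1L) and 7 fell, against 19.7% and 18% of all probes. In that comparison MTHFD2 was still 1.28-fold lower (log2 change -0.36, adjusted p = 0.022), a call lost without the 0 h array (-0.29, adjusted p = 0.11) or the 12 h array (-0.24, adjusted p = 0.23), and with median scaling (-0.18, adjusted p = 0.3). The dim SHMT1 probe, at -0.69 (adjusted p = 0.034), was not called without the 0, 12 or 15 h array (adjusted p = 0.15, 0.1 and 0.12).

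MTHFD1, the cytosolic enzyme with 3 activities on folate, rose to a plateau and came down from it. ILMN_10026 read 8.87, 8.47, 9.00 and 8.93 over 0-9 h and 9.54, 9.47, 9.63 and 9.56 over 12-21 h. It read 9.52, 9.44, 9.33 and 9.27 over 24-33 h and 8.83, 8.50, 8.63 and 8.64 over 36-45 h. All 8 arrays from 12 to 33 h lay above the other 8. From 0-3 to 6-9 h the change was 0.30 (adjusted p = 0.15), or 0.50 (adjusted p = 0.033) without the 0 h array and 0.10 (adjusted p = 0.71) without the 3 h array. The rise from 0-9 to 12-21 h was 1.66-fold (log2 change 0.73 ± 0.12 SE, adjusted p = 0.00019). From 6-9 to 12-15 h the rise was 0.54 (adjusted p = 0.015), a call lost without the 6, 9, 12 or 15 h array (0.57, 0.50, 0.50 and 0.57, adjusted p = 0.052, 0.06, 0.099 and 0.06). The late fall was 1.67-fold (-0.74 ± 0.12 SE, adjusted p = 8e-05). The last window then differed from the first by -0.17 (95% interval -0.41 to 0.08, adjusted p = 0.29). Without the 3 h array, the lowest of the series, that difference was -0.28 (adjusted p = 0.044).

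MTHFD1L, which releases formate in mitochondria, followed a similar course on its own probe. ILMN_20988 read 10.29, 10.03, 10.23 and 10.23 over 0-9 h and 11.06, 10.84, 11.06 and 10.91 over 12-21 h. It read 11.03, 11.10, 10.98 and 10.74 over 24-33 h and 10.48, 10.50, 10.43 and 10.40 over 36-45 h. Here too the 8 arrays of 12 to 33 h lay above all others. The step from 9 to 12 h was 0.83 on the log2 scale. MTHFD1L rose 1.71-fold from 0-9 to 12-21 h (0.77 ± 0.09 SE, adjusted p = 9.3e-06) and fell by 1.42-fold from 24-33 to 36-45 h (log2 change -0.51 ± 0.09 SE, adjusted p = 0.00021). It was 1.20-fold above the first window at the end (0.26 ± 0.09 SE, adjusted p = 0.033), a call lost without the 3, 36, 39 or 42 h array (0.20, 0.25, 0.24 and 0.26, adjusted p = 0.099, 0.068, 0.08 and 0.057).

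The promoters of these 2 genes are shown because the genes moved together. The windows are RefSeq sequence of build GRCh38.p14, from 250 bases before to 50 bases after a transcript start, and capitals mark the E-box CACGTG, bound by MYC and related factors, and the element TGATGNAA, bound by ATF4 with C/EBP factors.
MTHFD1 (chr14:64388103-64388402, plus strand): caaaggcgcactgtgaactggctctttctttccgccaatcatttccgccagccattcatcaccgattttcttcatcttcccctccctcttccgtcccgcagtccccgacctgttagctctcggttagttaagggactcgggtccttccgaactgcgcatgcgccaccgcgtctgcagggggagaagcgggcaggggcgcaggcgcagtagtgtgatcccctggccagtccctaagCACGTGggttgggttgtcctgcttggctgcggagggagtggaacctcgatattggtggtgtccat
MTHFD1L (chr6:150866236-150866535, plus strand): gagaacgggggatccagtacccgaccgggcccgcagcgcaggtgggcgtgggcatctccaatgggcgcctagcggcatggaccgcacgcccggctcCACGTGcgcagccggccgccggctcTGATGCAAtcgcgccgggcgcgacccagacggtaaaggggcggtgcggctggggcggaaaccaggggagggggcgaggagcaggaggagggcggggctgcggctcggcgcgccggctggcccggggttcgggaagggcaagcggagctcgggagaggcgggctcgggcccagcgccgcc
Both strands of each window were searched for these letters, and the motifs do not overlap here. CACGTG began 15 bases before the MTHFD1 start. In MTHFD1L it began 154 bases and TGATGCAA 129 bases before the printed start, and 3 of the 4 overlapping MTHFD1L windows held both. Of all 35116 windows, 7.26% held CACGTG and 3.62% TGATGNAA. The single windows of PHGDH, PSAT1, SHMT1 and MTHFD2 held neither, and PSPH and SHMT2 had no entry.

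In the window comparisons, 2 of 9 member probes rose from 0-9 to 12-21 h (MTHFD1 and MTHFD1L) and 2 fell (PHGDH and PSAT1), against 15.1% and 14.4% of all probes. Without the 9 h array 4 fell, both SHMT1 probes in addition. Between 12-21 and 24-33 h no member probe was called, none had an unadjusted p under 0.05, and 0% of all probes rose and 0.0251% fell. At an unadjusted p under 0.05 it was 4.93% of all probes. From 24-33 to 36-45 h, 4 of 9 fell and 0 rose, against 18.7% and 19.3% of all probes. These 4 were PSAT1, PSPH, MTHFD1 and MTHFD1L. From 0-9 to 36-45 h, 1 rose and 3 fell (MTHFD1L against PHGDH, PSAT1 and PSPH), against 16.2% and 15% of all probes. The PSPH call was lost with only the 8 arrays compared (-0.84, adjusted p = 0.077) and with the step between 21 and 24 h left out (-0.91, adjusted p = 0.089). With 9 probes these counts are a description, and nothing particular to the members is read from them.

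**Figure D3:**
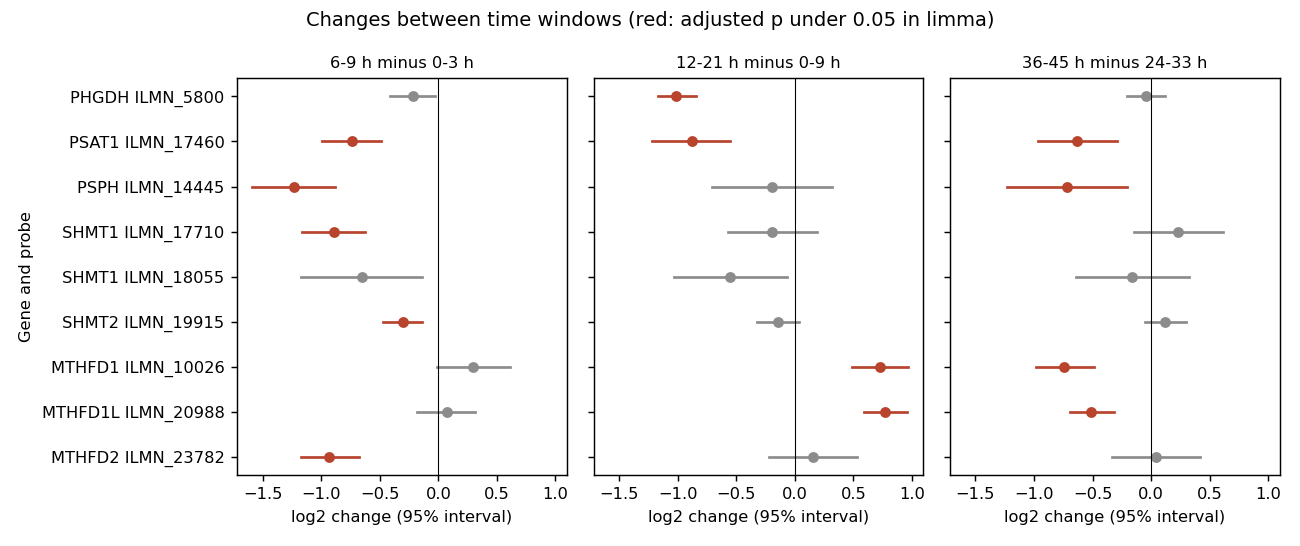
The log2 change of each tested member probe with its 95% interval (bar) for 6-9 minus 0-3 h, 12-21 minus 0-9 h and 36-45 minus 24-33 h; red marks an adjusted p under 0.05 in limma. The 5 called probes of the early comparison all lie below 0, and MTHFD1 and MTHFD1L lie above 0 in the second panel and below 0 in the third.

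MTHFD2 and MTHFD1 were compared as a mitochondrial and a cytosolic enzyme of the folate cycle. The pair does not stand for its compartments. Mitochondrial MTHFD1L fell late as MTHFD1 did (log2 change -0.51, adjusted p = 0.00021 in limma). The log2 difference MTHFD2 minus MTHFD1 averaged 2.07 ± 0.16 (SD, n = 4) over 24-33 h and 2.85 ± 0.16 (SD, n = 4) over 36-45 h, and the windows did not overlap (change 0.78, exact permutation p = 0.0286, adjusted p = 0.0857). From 0-9 to 12-21 h it moved by -0.58 (exact permutation p = 0.257, adjusted p = 0.386).

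Likeness of courses was described by Pearson r over the 16 arrays, which share their normalization and the steps common to many genes. Among the members it was highest for MTHFD1 with MTHFD1L (r = 0.87), PHGDH with PSAT1 (0.85), PSAT1 with PSPH (0.80) and SHMT1 with MTHFD2 (0.70), and lowest for PHGDH with MTHFD1L (-0.73). Among all tested probes outside the members, the courses most like PHGDH were those of DBI (0.975), MAGED1 (0.963) and ASNS (0.962), and those most like PSAT1 were ACAT2 (0.97), MRPL54 (0.962) and ASB9 (0.957). PSPH was nearest to TARS (0.942), ROD1 (0.928) and TMEM97 (0.922). SHMT1 was nearest to SLC35A5 (0.955), CDKN1A (0.937) and RRAGC (0.933), and SHMT2 to CHMP4C (0.908), ZNF219 (0.9) and SLC29A3 (0.894). For MTHFD1 the nearest were XPO4 (0.97), FABP5 (0.958) and NUP205 (0.956), and for MTHFD1L HNRPA2B1 (0.953), SMC6L1 (0.952) and C9orf46 (0.95). Near MTHFD2 were DDC (0.945) and INSIG1 (0.909).

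More of the other folate genes rose than fell at 12-21 h, and only falls were called among them late in the series. Of 17 listed, 16 were on the array and 13 tested. Between 0-9 and 12-21 h 7 rose and 0 fell (1 fell without the 21 h array), against 15.1% and 14.4% of all probes. The median change was 0.44 against 0 for all probes. Between 24-33 and 36-45 h 0 rose and 8 fell, against 19.3% and 18.7% of all probes. The median was -0.46 against 0 for all probes. Without the 24 h array 5 fell. SLC19A1, the reduced folate carrier, rose 2.29-fold to 12-21 h (log2 change 1.20 ± 0.34 SE, adjusted p = 0.013), a call lost with only the 8 arrays compared (adjusted p = 0.06), and fell by 2.79-fold at the end (-1.48 ± 0.34 SE, adjusted p = 0.0022). MTHFD2L, a mitochondrial relative of MTHFD2, rose 2.07-fold to 12-21 h (1.05 ± 0.18 SE, adjusted p = 0.00039), and its late change was 0.02 (adjusted p = 0.96). TYMS, which uses folate carbon to make thymidylate, fell by 2.49-fold at the end (-1.32 ± 0.17 SE, adjusted p = 1.4e-05).

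From 0-3 to 6-9 h, 6 of the 13 rose and 2 fell, against 13.3% and 11.5% of all probes. The median was 0.37 against -0.01 for all probes. SLC19A1, MTR, MTFMT, MTRR, GART and ATIC rose, by 1.56, 0.89, 0.83, 0.65, 0.60 and 0.46 on the log2 scale. GART and ATIC are enzymes of purine synthesis that use formyl folate. TYMS and GGH fell, by 0.63 and 0.33 on the log2 scale, and without the 9 h array neither was called (adjusted p = 0.092 and 0.18). GGH also lost its call without the 0, 6, 24, 27, 30, 33, 36 or 39 h array (adjusted p from 0.052 to 0.25). The change of MTR was 0.59 without the 9 h array (adjusted p = 0.022). In a fit of the 4 arrays of 0-9 h alone, 3 of the 13 rose and 1 fell, and MTR, MTRR and ATIC were not called (adjusted p = 0.07, 0.083 and 0.051).

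**Figure D4:**
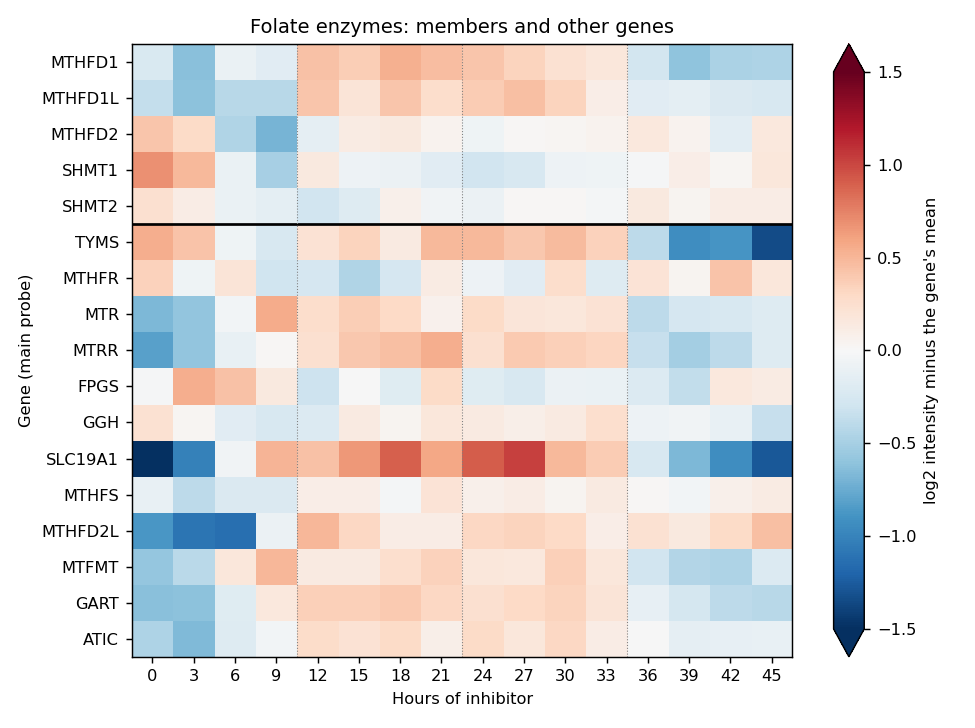
Log2 normalized intensity of each gene's main probe minus its mean over the 16 arrays (colour, cut at 1.5 in either direction) against hours of inhibitor, for the 5 folate members above the line and 12 of the 13 other tested folate genes below it; dotted lines separate the windows. MTHFD1, MTHFD1L, SLC19A1, GART and MTRR are highest between 12 and 33 h, whereas MTHFD2 and SHMT1 are lowest at 9 h.

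Genes known as ATF4 targets were listed with ATF4 itself and 2 C/EBP genes of the same response. Of 16 listed, 15 were on the array and 12 tested. From 0-3 to 6-9 h 0 rose and 7 fell, against 13.3% and 11.5% of all probes, with a median change of -0.73 against -0.01 for all probes. ATF4 fell by 0.76 on the log2 scale (adjusted p = 0.00013), measured by a row of combined values. TRIB3 fell by 1.54 (adjusted p = 1.2e-07), CEBPG by 0.97 (adjusted p = 5.2e-05) and CEBPB by 0.72 (adjusted p = 5e-06). The fall of DDIT3, 2.11 (adjusted p = 0.0064), rested on the 0 h array, which read 11.37 against 8.59 at 3 h. Its change was -0.72 (adjusted p = 0.026) without the 0 h array and -3.50 (adjusted p = 3.1e-09) without the 3 h array. MYC, whose product binds E-boxes, read 11.14, 12.19, 12.67 and 12.46 over 0-9 h and 12.22 to 12.58 from 12 h on. Its rise of 0.90 from 0-3 to 6-9 h (adjusted p = 0.004) was 0.38 (adjusted p = 0.028) without the 0 h array and 1.43 (adjusted p = 8.3e-08) without the 3 h array. MYC changed by 0.33 from 0-9 to 12-21 h (adjusted p = 0.27) and by -0.04 from 24-33 to 36-45 h (adjusted p = 0.9). Its part in the courses of MTHFD1 and MTHFD1L was not tested. In a fit of the 4 arrays of 0-9 h alone, 4 of the 12 fell, and neither DDIT3 (adjusted p = 0.13) nor MYC (adjusted p = 0.11) was called.

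From 0-9 to 12-21 h 4 of the 12 tested genes listed with ATF4, itself among them, fell and 0 rose, against 14.4% and 15.1% of all probes. Without the 0 h array 2 rose. ASNS, asparagine synthetase, fell by 3.01-fold (log2 change -1.59 ± 0.13 SE, adjusted p = 4.2e-07), with its largest fall between 9 and 12 h as for PHGDH. Its earlier change from 0-3 to 6-9 h was -0.38 (adjusted p = 0.04), a call lost without the 0, 3, 9, 12 or 15 h array (adjusted p from 0.051 to 0.32). SLC7A11, the cystine transporter, was above background on the 4 arrays of 0-9 h (mean log2 level 6.65) and on none later (mean 5.69 at 12-21 h), so it was tested only through the early arrays. It was at least 1.43-fold lower at 12-21 h. Nothing is concluded from its test (adjusted p = 4.8e-05), although it is counted among the 4 that fell. Its partner SLC3A2 fell by 0.90 on the log2 scale (adjusted p = 9.2e-07). SLC7A5, a carrier of large neutral amino acids, fell by 0.52 (adjusted p = 0.00057). From 24-33 to 36-45 h 3 fell and 1 rose, against 18.7% and 19.3% of all probes. Without the 0 h array 3 rose, and without the 9 h array 2 rose. SLC7A5 fell by a further 0.59 (adjusted p = 9.9e-05). ATF5, at -0.28 (adjusted p = 0.039), was not called without the 27, 30, 33, 36, 39 or 45 h array (adjusted p from 0.068 to 0.11). SLC3A2, at -0.23 (adjusted p = 0.03), was not called without the 24, 30, 33, 39, 42 or 45 h array (adjusted p from 0.051 to 0.11). ATF4 itself was the riser, at 0.41 (adjusted p = 0.039), and it was not called without any 1 of the 8 arrays compared (adjusted p from 0.055 to 0.1).

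**Figure D5:**
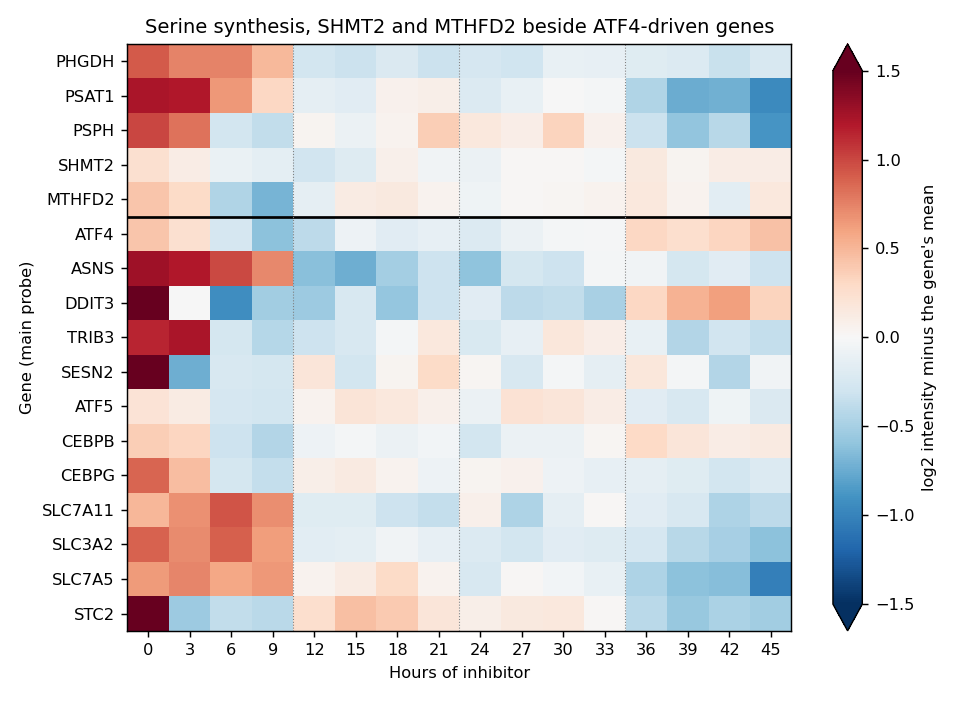
Log2 normalized intensity of each gene's main probe minus its mean over the 16 arrays (colour, cut at 1.5 in either direction) against hours of inhibitor, for 5 members above the line and the 12 tested genes listed with ATF4, itself among them, below it. PSPH, MTHFD2, ATF4, ASNS, TRIB3 and CEBPG are below their 0 and 3 h values at 6 h. PHGDH, ASNS, SLC7A11 and SLC3A2 step down between 9 and 12 h.

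Genes that use serine or glycine in other ways showed no common direction. Of 13 listed, 10 were tested, and from 0-9 to 12-21 h 3 rose and 2 fell, against 15.1% and 14.4% of all probes. CBS, which joins serine to homocysteine, fell by 2.81-fold (log2 change -1.49 ± 0.17 SE, adjusted p = 8.4e-06) and rose again by 0.57 at the end (adjusted p = 0.012). SARS, the seryl-tRNA synthetase, fell by 0.43 (adjusted p = 6.9e-05). PTDSS1, which makes phosphatidylserine, rose by 0.52 to 12-21 h (adjusted p = 0.0023) and then fell by 0.40 on the log2 scale (adjusted p = 0.011). SRR and PTDSS2, the other risers at 0.50 and 0.37, were both not called without the 21 h array (adjusted p = 0.056 and 0.08). SRR was also not called without the 6, 9, 12 or 15 h array (adjusted p from 0.053 to 0.075), and PTDSS2 without the 3 or 18 h array (adjusted p = 0.12 and 0.1). AMT of the glycine cleavage system was above background on 1 of the 4 arrays of 24-33 h and on all 4 of 36-45 h. It passed the filter only through these late arrays, so nothing is concluded from its test (adjusted p = 0.00048). At 36-45 h AMT was at least 1.56-fold higher than at 24-33 h. Without background correction the log2 change was 0.37 (adjusted p = 0.00062).

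Among 6 tested genes in or near the methionine cycle, which receives folate carbon, AMD1 rose by 0.63 to 12-21 h (adjusted p = 0.0055) and AHCYL1 by 0.42 (adjusted p = 0.0027), and 0 fell. The other 4, MAT2A, MAT2B, AHCY and GNMT, were not called (0.08, -0.16, 0.12 and 0.12, adjusted p = 0.71, 0.3, 0.22 and 0.53), so no rise of the cycle as a whole is read from this. In that comparison 15.1% of all probes rose and 14.4% fell. Late, AMD1 fell by 0.72 on the log2 scale (adjusted p = 0.0013), and MAT2B, at 0.30 (adjusted p = 0.039), was not called without the 24, 27, 39, 42 or 45 h array (adjusted p from 0.06 to 0.12). All 7 genes listed for lower glycolysis, from GAPDH to LDHA, which reduces pyruvate, were tested. LDHA rose by 0.64 to 12-21 h (adjusted p = 1.9e-06) and ENO1 by 0.30 (adjusted p = 0.0022, or 0.18 with cyclic loess, adjusted p = 0.041), and 0 of the 7 fell. Of all probes, 15.1% rose and 14.4% fell. From 24-33 to 36-45 h 5 fell and 0 rose, against 18.7% and 19.3% of all probes. PGAM1, which draws 3-phosphoglycerate toward pyruvate, fell by 1.97-fold (log2 change -0.98 ± 0.20 SE, adjusted p = 0.00086), and PGK1, which produces it, by 1.43-fold (-0.52 ± 0.09 SE, adjusted p = 0.00015).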

How the data were processed

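RNA of MCF10A cells was measured on 16 Illumina Ref8v2 arrays, 1 per time point. The authors deposited intensity values before any normalization, and with each value the detection p-value of its row. The published methods state quantile normalization; summary software and background correction are not given in the sources used here. Median intensity per array lay between 210.4 and 253.9, and precision is limited by how many arrays there are.

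Of the 20589 rows, 19092 stand for a single probe, as do all 10 member rows. From their detection p-values, 708 negative control beads were inferred, with a level of 165.7 to 198.6. Background was corrected by normexp (offset 16) in limma 3.58.1 under R 4.3.3, followed by quantile normalization and log2. The offset understates changes of dim probes. Where the dim side was not above background, a fold is a bound. Probes with a detection p-value under 0.05 on at least 3 arrays were tested.

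A natural cubic spline of time (3 degrees of freedom) was tested with the moderated F-test of limma, and windows with its moderated test, with an intensity trend and Benjamini-Hochberg adjustment. Scripts were tested on simulated data. Figures were drawn with matplotlib 3.10.9. Groups follow the labelled times. The members and lists were chosen with earlier results of these data known. Related genes were named as the 2 largest called changes per list and direction, plus ATF4, MYC, ASNS and TYMS, and other genes named were chosen after their values were seen. Some genes that this rule or the likeness of courses picks are not reported here. Where a gene has several probes, the brightest is the main one. For ATF3 and LAMB3 the main rows are combined rows with no detection p-value under 0.05, so they did not pass the filter. Their mean log2 levels were 7.33 and 11.24, so these detection p-values may not be comparable with those of single probes. Under the same filter 844 other combined rows were tested. Coordinates are given only for promoter windows, since no build is named for the array. Alternatives were background, offset, scaling, filter, curve, reference, arrays in the fit and each time point left out.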

Additional observations from a re-analysis of the deposited data

How the results depend on the processing

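No paired analysis was possible because every time point had 1 array. Over 271 results, 5838 recomputed values stayed on their side of the threshold, or near the value reported where there was no test, in 5545 cases. In 133 cases a call was lost, in 55 gained, and in 104 a value without a test or a count moved. The sign of a tested change turned in 60 cases, 59 of them with no call on either side and counted in the 5545. The other one was MTHFD2 in 36-45 minus 0-9 h, which was -0.30 with 0-3 h as the reference, a reference that leaves out the dip at 6-9 h. With that reference 6 member probes were lower. With time as a straight line, 3 member probes were called. For 36-45 minus 0-9 h, the count of higher member probes was 0 with no filter, with only the 8 arrays compared, and with the step between 21 and 24 h left out, and it ranged from 0 to 1 when single arrays were left out. For 36-45 minus 24-33 h it was 1 with only the 8 arrays compared, the bright SHMT1 probe. When single arrays were left out, lower member probes in 12-21 minus 0-9 h ranged from 2 to 4, and higher ones in 6-9 minus 0-3 h from 0 to 1. The causes of these shifts were not tested. The trend of SHMT2 lost its call without the 0, 12 or 15 h array. Without background correction the changes to 12-21 h were smaller for SLC19A1 (0.65), MTHFD2L (0.57) and SRR (0.21).

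Quantile normalization forces the arrays to one distribution. With median scaling, the median of all probes moved by up to 0.1, and higher calls made up 74.6% in place of 51.3% in 12-21 minus 0-9 h, 34.7% in place of 50.8% in 36-45 minus 24-33 h, 73.9% in place of 51.8% in 36-45 minus 0-9 h, and 64.1% in place of 53.7% in 6-9 minus 0-3 h. For 12-15 minus 6-9 h the shares were 68.9% and 51.6%. The early falls of PSAT1, PSPH, SHMT1, SHMT2 and MTHFD2, the steps of PHGDH and PSAT1, and both changes of MTHFD1 and MTHFD1L kept their calls under this scaling. In the 4 arrays of 0-9 h alone, 4 member probes fell early, without SHMT2 (adjusted p = 0.093).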
